A study of Mus musculus with 24 samples.

Results

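Troponin and tropomyosin are the proteins that switch the thin filament of striated muscle on and off, and the genes for their isoforms were followed through 13 libraries of mouse heart RNA. The genes were taken by name: the troponin I genes Tnni1, Tnni2 and Tnni3, the troponin T genes Tnnt1, Tnnt2 and Tnnt3, the troponin C genes Tnnc1 and Tnnc2, and the tropomyosin genes Tpm1 and Tpm2. All 10 were found among the 23998 genes of the deposited polyA RNA table. Values are FPKM, fragments scaled by transcript length and by mapped fragments, so that levels of different genes can be set side by side. Of the 10 genes, 8 reached the mean of 1 FPKM over all libraries that was required for testing, and Tnnt3 and Tnnc2 did not.

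The mice were of the CD1 strain and transgenic for human MYL2, the gene of a myosin light chain that heart ventricles use (the regulatory one, RLC). Where virus was given, it was of serotype AAV9 and went through the jugular vein at 3 days of age, and hearts were collected at 4 months. The wild-type group (3 libraries, numbers 2 to 4) carried the normal human allele and had received a control virus without the M7.8L shRNA. The other mice carried the mutated human allele and formed 3 groups: untreated mutants (3 libraries, numbers 9 to 11), mutants given the control virus (3 libraries, numbers 1 to 3) and mutants labelled as given the virus with the M7.8L shRNA (4 libraries, numbers 5 to 8), a vector named AAV9 H1-M7.8L RSVp-Cerulean. The genotype entry of the labels reads RLC-47K L6 for every sample, so the allele was taken from the sample names. The sources used here do not name the promoter that drives the transgene, no wild-type hearts without virus or with shRNA virus were among the samples, and each library carries its own animal number. Nothing else in the labels says how the animals were related, so p-values measure the spread between these libraries.

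Troponin C binds calcium, troponin I holds the filament in the off state, and troponin T anchors the complex to tropomyosin, which lies along actin and blocks its sites for myosin. Tnni3, Tnnt2, Tnnc1 and Tpm1 are the forms of the adult cardiac muscle cell, and Tnnc1 also serves slow skeletal muscle. Tnni1 (slow skeletal troponin I) and Tpm2 (beta-tropomyosin) are known from the developing heart, Tnnt1 is the slow skeletal troponin T, and Tnni2, Tnnt3 and Tnnc2 are the fast skeletal forms.

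The sequence before the annotated start of the 6 genes that carry the results is shown first, since Tnni3, Tnnt1, Tnnt2, Tnnc1 and Tpm1 are compared below as genes that moved in the same direction and Tpm2 as one that moved the other way. The RefSeq promoter table (build GRCm38.p6) held an entry for 8 of the 10 genes, matched by symbol, and none for Tnni2 and Tnnt3. Each line gives the 250 bases before the start, 5′ to 3′ on the gene's own strand, with motif matches in capitals. The windows are chr7:4522529-4522778 (minus strand) for Tnni3, chr7:4515976-4516225 (minus) for Tnnt1, chr1:135836084-135836333 (plus, the first of 2 entries) for Tnnt2, chr14:31208062-31208311 (plus) for Tnnc1, chr9:67049214-67049463 (minus) for Tpm1 and chr4:43523555-43523804 (minus) for Tpm2. The motifs searched were the M-CAT core CATTCC, the GATA motif GATAA and the E-box CAGCTG on both strands, the TATA box TATAAA on the gene's strand, and the CArG and MEF2 boxes on both strands. No matches of different motifs overlapped.
Tnni3: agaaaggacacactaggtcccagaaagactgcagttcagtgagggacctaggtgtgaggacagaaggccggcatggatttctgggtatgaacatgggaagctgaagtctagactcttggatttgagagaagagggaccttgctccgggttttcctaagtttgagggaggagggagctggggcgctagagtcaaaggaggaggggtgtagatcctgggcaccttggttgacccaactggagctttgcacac
Tnnt1: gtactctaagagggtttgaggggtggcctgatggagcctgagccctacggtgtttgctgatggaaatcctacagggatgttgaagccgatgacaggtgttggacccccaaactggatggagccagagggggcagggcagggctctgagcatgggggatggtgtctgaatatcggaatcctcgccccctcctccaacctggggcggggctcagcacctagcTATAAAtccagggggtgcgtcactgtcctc
Tnnt2: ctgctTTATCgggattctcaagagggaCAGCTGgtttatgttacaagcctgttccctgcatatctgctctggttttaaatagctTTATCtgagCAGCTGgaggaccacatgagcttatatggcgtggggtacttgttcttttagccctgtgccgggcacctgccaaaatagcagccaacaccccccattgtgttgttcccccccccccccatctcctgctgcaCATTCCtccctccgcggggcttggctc
Tnnc1: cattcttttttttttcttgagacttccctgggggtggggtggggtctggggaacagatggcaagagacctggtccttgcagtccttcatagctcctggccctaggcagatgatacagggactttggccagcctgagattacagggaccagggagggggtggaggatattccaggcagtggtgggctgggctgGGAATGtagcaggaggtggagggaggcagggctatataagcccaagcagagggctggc
Tpm1: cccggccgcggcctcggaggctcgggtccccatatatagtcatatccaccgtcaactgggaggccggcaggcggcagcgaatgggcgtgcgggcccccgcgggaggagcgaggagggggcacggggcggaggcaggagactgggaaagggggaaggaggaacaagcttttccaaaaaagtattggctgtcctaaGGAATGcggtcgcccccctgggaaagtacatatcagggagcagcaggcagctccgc
Tpm2: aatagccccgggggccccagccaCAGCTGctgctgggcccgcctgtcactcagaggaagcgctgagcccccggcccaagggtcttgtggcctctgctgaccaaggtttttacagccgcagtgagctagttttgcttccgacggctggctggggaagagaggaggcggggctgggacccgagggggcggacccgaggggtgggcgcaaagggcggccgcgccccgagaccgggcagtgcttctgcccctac

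Positions count from the start, with -1 the base before it. Tnnt2 held an M-CAT match at -27 to -22, 2 GATA matches and 2 E-boxes. Tnnc1 and Tpm1 each held 1 M-CAT match, at -58 to -53 and -56 to -51, and no other match. Tnnt1 held a TATA box at -30 to -25, Tpm2 an E-box at -227 to -222, and the Tnni3 window held none of the letters searched. Among all 32851 promoter windows of the same length, 12.6% held the M-CAT core, 22.6% the GATA motif, 13% the E-box and 7.59% the TATA box, while the CArG and MEF2 boxes were in 1.47% and 1.69% and in none of these 6 windows. Tnnt1 is the next gene to Tnni3 on chromosome 7 in the RefSeq annotation.

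**Figure D1:**
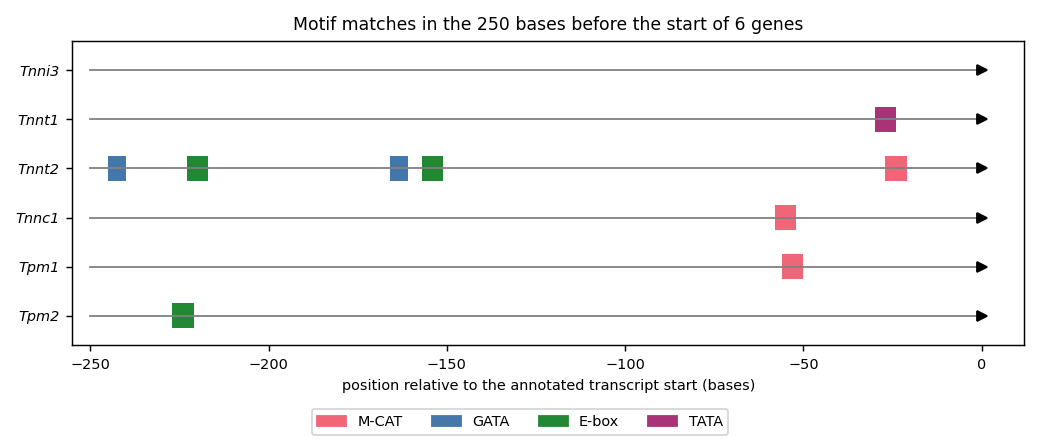
Positions of motif matches in the 250 bases before the annotated start of Tnni3, Tnnt1, Tnnt2, Tnnc1, Tpm1 and Tpm2; the x axis is the position in bases relative to the start (arrow head), and colours mark M-CAT, GATA, E-box and TATA matches. An M-CAT match within 60 bases of the start stands in Tnnt2, Tnnc1 and Tpm1, and the Tnni3 line is empty.

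The libraries differed in scale and in composition, and this touches each result below. FPKM totals ran from 580948 to 1701500, and the median shift of a library against the gene means ran from -0.45 (untreated mutant 10) to 0.71 (shRNA-labelled 8) on the log2 scale, so differences are also given after the library medians were aligned. Relative depth was read from the steps of the lowest FPKM values and, as a percentage of the deepest library (untreated mutant 11), was 20.4 to 30.9 in the shRNA-labelled group, 28.2 to 47.0 in wild type, 40.1 to 100 in untreated mutants and 33.1 to 80.4 in control-virus mutants. Library 8 of the shRNA-labelled group stood apart from libraries 5 to 7. A row named hMyl2, which by its name would be the human transgene although the sources used here do not say what it measures, was 229, 420 and 317 FPKM in libraries 5, 6 and 7. It was listed at 0 in the other 10 libraries, all of them labelled as transgenic for human MYL2, so the zeros go against those labels too if the row is the transgene. The row named shRNA was at 0 in all 13. Six3, a homeobox gene known from the developing brain and eye, was 13.6 to 27.6 FPKM in the 6 mutants without shRNA and 60.6 in library 8, but at most 0.0913 in wild type and in libraries 5 to 7. Libraries 5 to 7 thus differed from all other mutants in hMyl2 and Six3, and the group is called shRNA-labelled throughout, and results are given with and without library 8. By Ddx3y, a Y-linked gene, the 3 control-virus mutants and library 8 were female, libraries 5 to 7 were male, and wild type and untreated mutants each held 2 males and 1 female, so sex and group are partly entangled. In whole-heart RNA, fewer cells of a type and less RNA per cell cannot be told apart.

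The cardiac forms made up nearly all of each protein's mRNA in every library. On the FPKM scale Tnni3 was 99.89% or more of the sum of the troponin I genes, Tnnt2 at least 99.7% of the troponin T genes, Tnnc1 99.9887% or more of the troponin C genes and Tpm1 at least 99.0% of the sum of Tpm1 and Tpm2. The cardiac markers fixed for the check of tissue (Ttn, Actn2, Ryr2, Pln, Mb, Actc1, Myl3 and Tcap) were above 0 in all 13 libraries, with sums of 69404 to 78784 FPKM in wild type, 33060.2 to 53588 in the 6 mutants without shRNA and 78133 to 140694 in the shRNA-labelled group. These sums, with Mb and Actc1 the highest by group mean, moved in the same direction as the cardiac forms described here. As deposited, Actn2, Ryr2, Pln, Mb, Myl3 and Tcap were singly lower in all 6 mutants without shRNA than in wild type. The share of all genes that did so was not counted. Called as lower by limma were 7.35% of all tested genes in control-virus and 19.2% in untreated mutants. With aligned medians Actn2 overlapped (10.479 to 10.587 on the log2 scale in wild type, up to 10.482 in untreated mutants). Ttn and Actc1 overlapped (212 to 272 and 16602 to 21637 FPKM in wild type, 156 to 261 and 11836 to 17588 in untreated mutants). In the shRNA-labelled group Ttn and Ryr2 had means of 219 and 364 FPKM, below wild type at 233 and 388, and the other markers had means above it. The part of these markers in the results was not tested. By mean FPKM over all libraries Tnnt2 ranked 5th, Tpm1 7th, Tnni3 10th and Tnnc1 11th of the 23998 genes, with means of 12039, 11411, 8364 and 7218 FPKM. The minor forms followed far below at 44.8 FPKM for Tpm2, 19.3 for Tnnt1, 1.71 for Tnni2, 1.31 for Tnni1, 0.899 for Tnnt3 and 0.333 for Tnnc2. Together the 10 genes held 3.71 to 3.90% of all FPKM in wild type, 2.93 to 3.05% in untreated mutants, 2.97 to 3.33% in control-virus mutants and 3.17 to 5.35% in the shRNA-labelled libraries, where the lowest share was that of library 8.

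**Figure D2:**
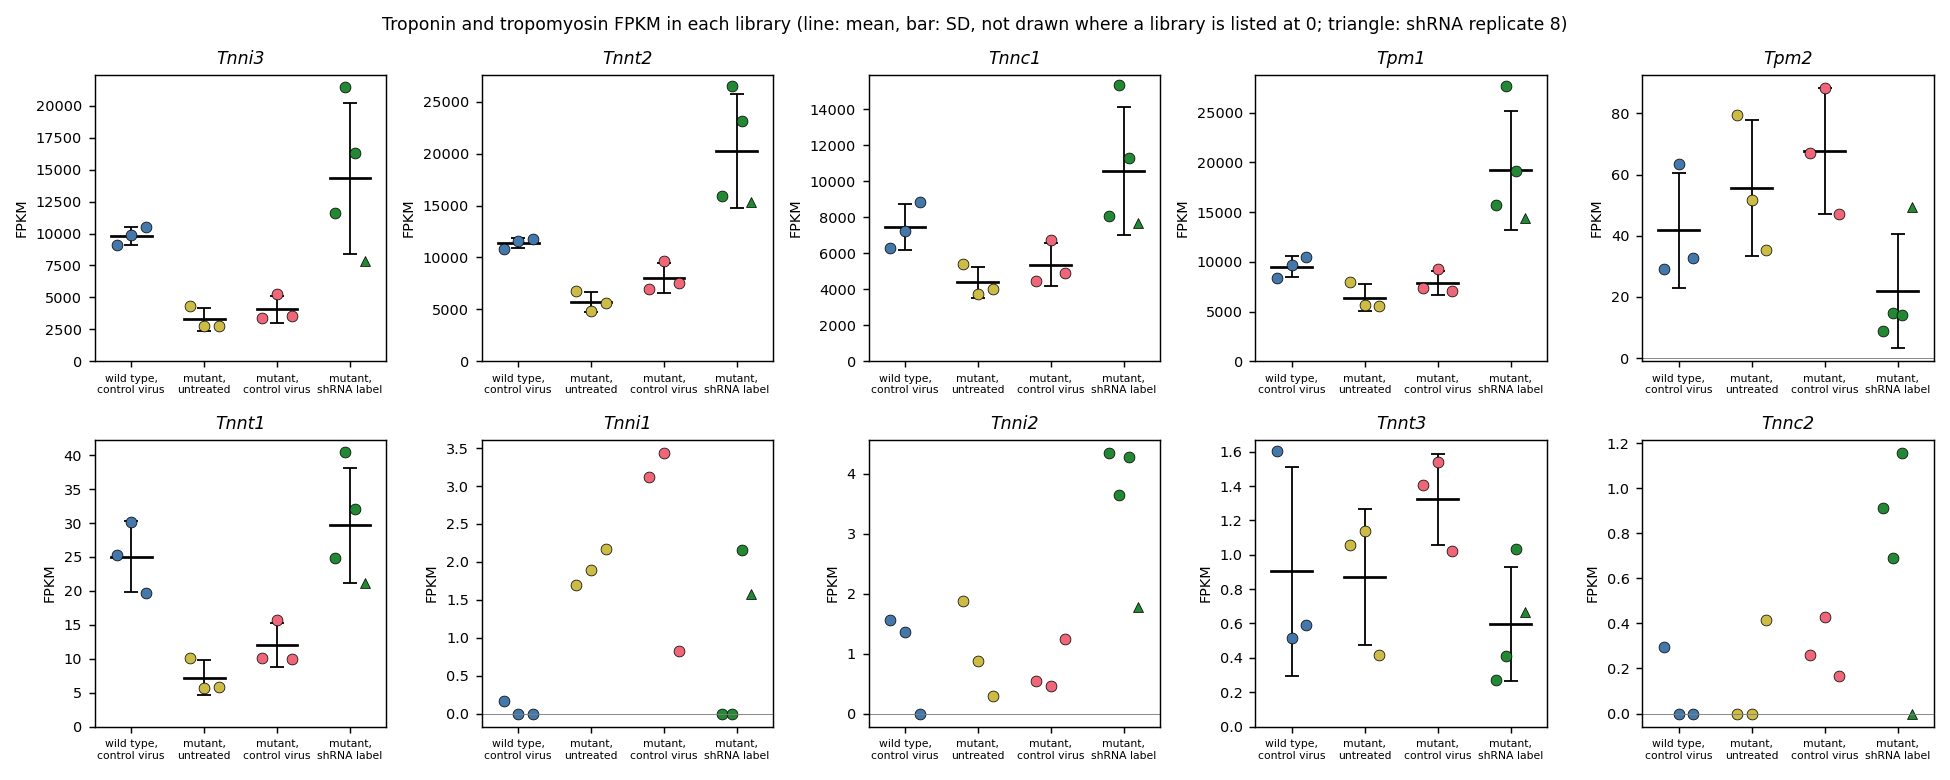
FPKM (y axis, linear) of the 10 genes in each of the 13 libraries by group (x axis); points are libraries, the triangle is shRNA-labelled library 8, and lines and bars are the group mean and SD, left out for genes listed at 0 in a library. Tnni3 lay between 2720 and 5269 FPKM in the 6 mutants without shRNA and between 9100.3 and 10495 in wild type, and Tpm2 was lowest in shRNA-labelled libraries 5 to 7.

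In mutant hearts against wild type, Tnni3 and Tnnt1 were lower and Tnni1 was higher whether or not the mutants had received the control virus, and Tnnt2 was also lower in the untreated mutants. Differences were tested with limma on log2(FPKM + 1) and called at an adjusted p under 0.05, taken over 12980 genes. For control-virus mutants 3 of the 8 tested genes were called (1 higher, 2 lower), where 9.5% of all tested genes were called (2.15% higher, 7.35% lower). For untreated mutants 4 were called (1 higher, 3 lower), where 20.7% of all genes were (1.54% higher, 19.2% lower). The median difference of the 8 genes was -0.38 and -0.68 in these comparisons, beside -0.14 and -0.33 over all tested genes. Both comparisons use the same 3 wild-type libraries, all given the control virus. The untreated comparison thus differs in virus as well as in allele, and these cannot be told apart there. Called genes depended on single libraries, as did the share of all genes called. Without any 1 of wild-type 2, 3 and 4 or control-virus mutant 1 the control-virus comparison called 0 of the 8. The shares of all genes called were then 2.85, 2.47, 2.83 and 1.78%. Without control-virus mutant 3 it called Tnni1 (1 of 8), where 2.91% of all genes were called, and with sex as a covariate it called 0, where 0.971% were. With aligned library medians the control-virus comparison called the same 3 genes, where 23.2% of all genes were called (11.2% higher, 12% lower), and the untreated comparison called 3, without Tnnt2, where 25.7% were (10.1% higher, 15.5% lower). Without library 8, which enters these comparisons through the shared spread alone, they called 3 and 5 genes, where 21.1% and 31.3% of all genes were called, Tnnc1 being the added gene. The untreated comparison called Tnni3 and Tnnt1 (2 of 8) without wild-type 3, wild-type 4, untreated mutant 10 or untreated mutant 11. The shares of all genes called were then 10.7, 9.87, 8.22 and 10.2%. Between the control-virus and the untreated mutants none of the 8 genes was called by limma, where 0% of all genes were, and at an unadjusted p under 0.05 only Tnnt1 passed (1 of 8, beside 4.41% of all genes), with the same counts under robust limma. Tnnt2, called in the untreated group, differed between the 2 mutant groups by 0.49 (SE 0.29, adjusted p = 0.771), which did not pass.

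In shRNA-labelled hearts the 4 cardiac forms Tnni3, Tnnt2, Tnnc1 and Tpm1 and the minor forms Tnnt1 and Tnni2 were higher than in control-virus mutants, and Tpm2 was lower. That is 7 of the 8 tested genes (6 higher, 1 lower), where 35% of all tested genes were called, 33.4% as higher and 1.66% as lower. Against untreated mutants the same 7 genes were called in the same directions, where 54.8% of all genes were called (53.6% higher, 1.21% lower). The median difference of the 8 genes was 1.24 and 1.40, beside 0.47 and 0.66 over all tested genes. Since most genes shifted upward together, these comparisons were repeated with aligned medians: 5 genes were then called against control-virus mutants (Tnni3, Tnnt1 and Tnnt2 higher, Tnni1 and Tpm2 lower), where 25.8% of all genes were, in shares of 14.6% higher and 11.2% lower. Against untreated mutants 6 were called with aligned medians, the same 5 and Tpm1, where 30.6% of all genes were (19.3% higher, 11.3% lower). With sex as a covariate 5 were called against control-virus mutants, where 20.2% of all genes were, without Tnni2 and Tnnc1 (0.85, adjusted p = 0.0821 for Tnnc1). Without library 8 all 8 genes were called in each comparison, Tnni1 as lower, where 39.6% and 53.3% of all genes were. The 2 comparisons share the 4 shRNA-labelled libraries.

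Against wild type, 0 of the 8 genes were called in the shRNA-labelled group by limma, where 0.108% of all genes were. At an unadjusted p under 0.05, 4 of 8 passed (Tnni2, Tnnt2, Tpm1 and Tpm2), as did 15.6% of all genes, and limma fitted on the compared groups alone also called 0, as did limma with aligned medians, where 0.108% of all genes were called too. Without library 8, 3 were called: Tnni2 and Tpm1 higher and Tpm2 lower, where 1.75% of all genes were called. With aligned medians and without library 8, Tnnt2 and Tpm1 were higher and Tpm2 lower, where 5.69% of all genes were called.

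**Figure D3:**
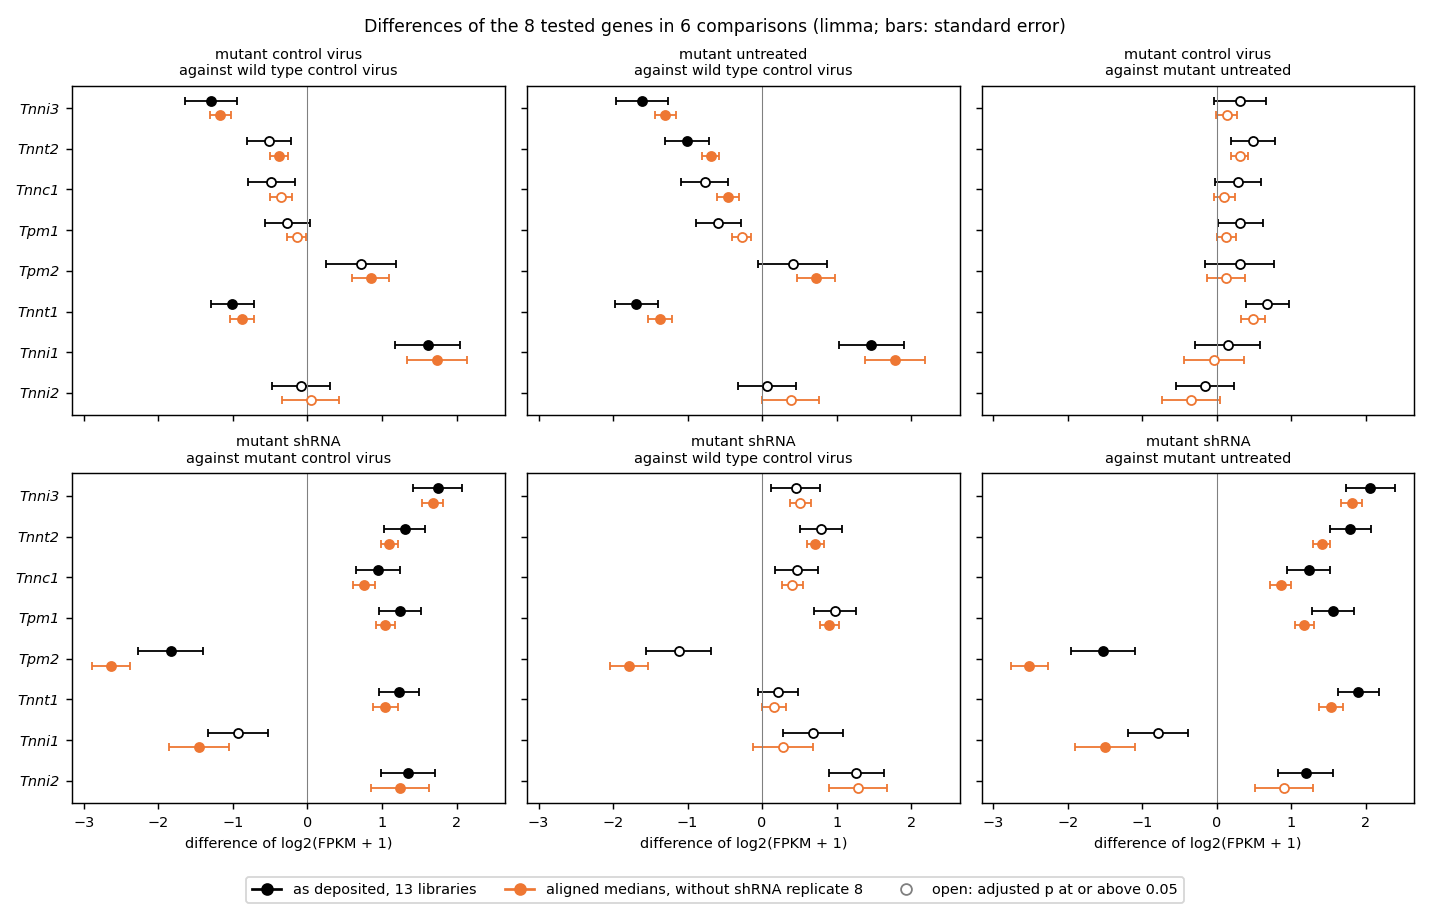
Differences of log2(FPKM + 1) (x axis) of the 8 tested genes (y axis) in 6 comparisons, from limma; bars are standard errors, filled points passed an adjusted p of 0.05, black is the fit on deposited values of 13 libraries and orange the fit with aligned library medians without shRNA-labelled library 8. Tnni3 and Tnnt1 lie left of 0 in mutants against wild type and right of 0 in shRNA-labelled libraries against mutants, and Tpm2 lies left of 0 in the 3 panels of the lower row.

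Tnni3, cardiac troponin I, showed the largest difference between mutants and wild type among the 4 cardiac forms in both comparisons. Its FPKM in wild-type libraries 2, 3 and 4 were 9100.3, 9847 and 10495. In untreated mutants 9, 10 and 11 they were 4314, 2720.4 and 2791, and in control-virus mutants 1, 2 and 3 they were 3364, 5269 and 3566. All 6 mutants without shRNA were therefore below all wild-type libraries. Against wild type Tnni3 was 2.46-fold lower in control-virus mutants (log2 difference -1.30, SE 0.35, limma adjusted p = 0.0277) and 3.06-fold lower in untreated mutants (-1.61, SE 0.35, adjusted p = 0.00455). With aligned medians the differences were -1.17 (adjusted p = 0.0398) and -1.30 (adjusted p = 0.0265). With sex as a covariate the first was -1.02 and missed the threshold (adjusted p = 0.189), where 0.971% of all genes were called, and with sex and without library 8 it was -1.25 (adjusted p = 0.0216), where 10.4% were.

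Tnni3 in the shRNA-labelled group was 11587, 21489 and 16339 FPKM in libraries 5, 6 and 7 and 7853 in library 8. As deposited, the first 3 were above every other library and library 8 was between the mutants and wild type. With aligned medians library 8 (12.23 on the log2 scale) lay among the mutants without shRNA (11.85 to 12.26). Wild type was then at 13.22 to 13.29, and libraries 5 to 7 stayed above it. The group was 3.36-fold above control-virus mutants (1.75, SE 0.33, adjusted p = 0.00126) and 4.18-fold above untreated mutants (2.06, SE 0.33, adjusted p = 0.000153) by limma. With aligned medians these were 1.30 (adjusted p = 0.0224) and 1.43 (adjusted p = 0.0112). Against wild type the difference was 0.45 (SE 0.33, adjusted p = 0.398).

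Tnni1, the slow skeletal troponin I of the developing heart, was near the limit of detection in wild type. It was 0.169 FPKM in wild-type library 2 and listed at 0 in libraries 3 and 4. In untreated mutants it was 1.70, 1.89 and 2.17 FPKM, and in control-virus mutants 3.12, 3.44 and 0.826, so that the 6 mutants did not overlap with wild type. On the log2(FPKM + 1) scale, which shrinks changes of low genes, Tnni1 was higher by 1.47 (SE 0.43, limma adjusted p = 0.0234) in untreated and by 1.61 (SE 0.43, adjusted p = 0.0275) in control-virus mutants. In fragments, read from the steps of the table, this is 1, 0 and 0 in wild type against 9, 13 and 29 in untreated and 22, 15 and 9 in control-virus mutants, where 6 of the 9 libraries above 0 gave a whole number within 0.1. The relative depth of the wild-type libraries was 28.2 to 47.0% of the deepest library, beside 33.1 to 100% in these mutants.

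The shRNA-labelled libraries 5 and 6 listed Tnni1 at 0, and libraries 7 and 8 gave 2.16 and 1.58 FPKM. The group lay 0.93 below control-virus mutants on the log2(FPKM + 1) scale, which did not pass (SE 0.40, limma adjusted p = 0.0797). With aligned medians it was lower by 1.38 (adjusted p = 0.0251), and without library 8 by 1.13 (adjusted p = 0.0129). The depth of these 4 libraries was at most 30.9% of the deepest.

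Tnni2, the fast skeletal troponin I, was low everywhere. It was 1.56 and 1.36 FPKM in wild-type libraries 2 and 3 and listed at 0 in library 4, 1.88, 0.872 and 0.292 in untreated mutants, and 0.546, 0.455 and 1.24 in control-virus mutants. In shRNA-labelled libraries 5, 6 and 7 it was 4.35, 3.64 and 4.28, above every other library, and library 8 at 1.77 was within the range of the other groups. Tnni2 passed by limma against control-virus mutants (1.35, SE 0.37, adjusted p = 0.0105) and not with aligned medians (0.90, adjusted p = 0.148). The control-virus mutants were all female and libraries 5 to 7 all male, and with sex as a covariate Tnni2 was 0.60 (SE 0.32, 1.52-fold, adjusted p = 0.145) and not called. The 3 high values rest on 9, 5 and 7 fragments, and no library had more than 9. The fast skeletal markers Myh1, Myh2 and Myh4, the myosins that define those fibres, were at most 0.0863 FPKM in any library, and the sum of the 10 markers was 49.9 to 88.2 FPKM in the shRNA-labelled group, 55.5 to 78.7 in wild type, 63.9 to 133 in untreated and 57.7 to 80.6 in control-virus mutants. Those sums were carried by Mybpc2, at 7.10 to 36.4 FPKM in the shRNA-labelled group and 29.2 to 110 elsewhere, and by Myl1, at 41.1 to 58.1 in the shRNA-labelled group and 15.6 to 44.5 elsewhere. Their part in the Tnni2 values was not tested.

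Tnnt2, cardiac troponin T, was steadier between mutants and wild type than Tnni3. Wild-type libraries 2, 3 and 4 gave 10859, 11586 and 11732 FPKM, untreated mutants 6729, 4843 and 5601, and control-virus mutants 6989.9, 9701 and 7495. All 6 mutants were below wild type, with control-virus mutant 2 nearest to it. Tnnt2 was 2.01-fold lower in untreated mutants (-1.01, SE 0.29, limma adjusted p = 0.0229), but not at the threshold with aligned medians (-0.69, adjusted p = 0.0981). In control-virus mutants the difference was -0.51 (SE 0.29, adjusted p = 0.293).

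The shRNA-labelled libraries 5 to 8 gave 15943, 26534, 23167 and 15326 FPKM for Tnnt2. As deposited, all 4, library 8 included, were above every library of the other groups. With aligned medians library 8 (13.20 on the log2 scale) lay below wild type (13.45 to 13.50). It was then just above the mutants without shRNA (12.69 to 13.17), and the other shRNA-labelled libraries stayed above wild type. Over the group of 4, Tnnt2 was 2.47-fold above control-virus mutants (1.30, SE 0.28, limma adjusted p = 0.00242), and 1.81-fold above them with aligned medians (0.85, adjusted p = 0.0393). Against wild type it was 0.79 higher as deposited without passing (SE 0.28, adjusted p = 0.292) and passed with aligned medians and without library 8 (0.72, SE 0.12, adjusted p = 0.00549).

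Tnnt1, the slow skeletal troponin T, followed Tnni3 across the groups. It was 25.3, 30.1 and 19.7 FPKM in wild type, 10.1, 5.63 and 5.85 in untreated mutants, and 10.2, 15.8 and 10.0 in control-virus mutants. No mutant library reached the lowest wild-type value. Tnnt1 was 3.22-fold lower in untreated mutants (-1.69, SE 0.29, limma adjusted p = 0.00159) and 2.02-fold lower in control-virus mutants (-1.01, SE 0.29, adjusted p = 0.0361). In the shRNA-labelled libraries 5 to 8 it was 24.9, 40.5, 32.1 and 21.1, in and above the wild-type range as deposited. With aligned medians library 8 (3.76 on the log2 scale) lay below wild type (4.30 to 4.91) and among the mutants without shRNA (3.18 to 3.97). As deposited, the group was 2.34-fold above control-virus mutants (1.23, SE 0.27, adjusted p = 0.0031) and 3.74-fold above untreated mutants (1.90, SE 0.27, adjusted p = 9.01e-05). Against wild type the difference was 0.22 (SE 0.27, adjusted p = 0.586). With aligned medians all 4 of the called differences of Tnnt1 remained called. Tnnt3, the fast skeletal troponin T, lay between 0.273 and 1.60 FPKM in all 13 libraries, on at most 10 fragments. Its groups overlapped as deposited, and it was not tested with limma. With aligned medians the shRNA-labelled libraries (0.03 to 0.75 on the log2 scale, 1 to 3 fragments) lay below the mutants without shRNA (0.90 to 1.55). Their Tnnt3 to Tnnt2 ratio was 5.42-fold below control-virus and 4.92-fold below untreated mutants, without overlap. Both exact permutation tests gave p = 0.0571 (adjusted p = 0.103).

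Tnnc1, troponin C of cardiac and slow muscle, showed smaller differences than Tnni3 and Tnnt2 wherever mutants were compared with wild type or shRNA-labelled libraries with mutants. Wild type gave 6279, 7235 and 8831 FPKM, untreated mutants 5379.7, 3742 and 4004, and control-virus mutants 4472, 6715 and 4881. As deposited, control-virus mutant 2 lay within the wild-type range. Neither mutant group passed against wild type in the fit of 13 libraries (-0.48, SE 0.31, limma adjusted p = 0.361 with control virus, and -0.77, SE 0.31, adjusted p = 0.089 untreated). Fitted on the compared groups alone, Tnnc1 passed in untreated mutants, where 39.6% of all genes were called. It also passed there without library 8. The shRNA-labelled libraries 5 to 8 gave 8047, 15322, 11253 and 7679 FPKM, the first and last of them within the wild-type range as deposited. With aligned medians library 8 (12.20 on the log2 scale) was the lowest of all libraries, below the mutants without shRNA (12.30 to 12.61). Library 5 (13.08) was then just above wild type (12.71 to 13.04). Tnnc1 passed against control-virus mutants (0.95, SE 0.29, adjusted p = 0.0202) and against untreated mutants (1.23, SE 0.29, adjusted p = 0.00251), and in neither with aligned medians (0.50, adjusted p = 0.19, and 0.60, adjusted p = 0.115). After quantile normalization the sign turned (-0.25 and -0.21). Tnnc2, the fast skeletal troponin C, was listed at 0 in 5 libraries and at most 1.16 FPKM elsewhere, on at most 3 fragments, and was not tested.

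Tpm1, alpha-tropomyosin, showed the smallest difference between mutants and wild type of the cardiac forms. Wild type gave 8373, 9667 and 10516 FPKM, untreated mutants 7939, 5638 and 5591, and control-virus mutants 7377, 9278 and 7046. As deposited, the control-virus mutants overlapped with wild type and the untreated mutants did not. The differences were -0.27 (SE 0.30, limma adjusted p = 0.625) with control virus and -0.59 (SE 0.30, adjusted p = 0.177) untreated. Fitted on the compared groups alone, the untreated difference passed, where 39.6% of all genes were called. In shRNA-labelled libraries 5 to 8 Tpm1 was 15719, 27702, 19098 and 14398, all 4 above every other library as deposited. With aligned medians library 8 (13.11 on the log2 scale) lay just below wild type (13.12 to 13.29). It was then just above the mutants without shRNA (12.85 to 13.08), and the other shRNA-labelled libraries stayed above wild type. Over the group of 4, Tpm1 passed against control-virus mutants (1.25, SE 0.28, adjusted p = 0.00364), and with aligned medians the adjusted p was 0.0509 (0.80, SE 0.28). Against wild type Tpm1 was 1.96-fold higher without passing (0.97, SE 0.28, adjusted p = 0.236), and it passed without library 8 (2.14-fold, SE 0.27 on the log2 scale, adjusted p = 0.0293).

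Tpm2, beta-tropomyosin, was the 1 tested gene called lower in the shRNA-labelled group on deposited values. Wild type gave 29.3, 63.4 and 32.8 FPKM, untreated mutants 79.4, 51.7 and 35.4, and control-virus mutants 67.0, 88.4 and 47.3, so the groups overlapped. Shown singly, shRNA-labelled libraries 5, 6 and 7 gave 8.91, 14.8 and 14.2 FPKM, below every other library. Library 8 at 49.5 was within the range of the mutants as deposited. With aligned medians library 8 (4.95 on the log2 scale) lay below the mutants without shRNA (5.59 to 6.40). It was then just below wild type (5.01 to 5.96) and above libraries 5 to 7. Tpm2 was 3.57-fold lower than in control-virus mutants (-1.83, SE 0.44, limma adjusted p = 0.00484) and 2.88-fold lower than in untreated mutants (-1.53, SE 0.44, adjusted p = 0.00795). Without library 8 these were -2.31 (adjusted p = 1.51e-06) and -2.01 (adjusted p = 6.93e-06). Against wild type Tpm2 was -1.12 (SE 0.44, adjusted p = 0.306) with library 8 and -1.60 (SE 0.30, adjusted p = 0.00341) without it. In mutants against wild type it did not pass as deposited (0.72, adjusted p = 0.363 with control virus, and 0.41, adjusted p = 0.565 untreated). With aligned medians and without library 8 it did (0.85, SE 0.25, adjusted p = 0.0183, and 0.72, SE 0.25, adjusted p = 0.0377), where 38.9% and 39.3% of all genes were called.

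Tpm2 is also a tropomyosin of smooth muscle, and 2 of the 6 smooth muscle markers, Acta2 and Cnn1, were higher in every mutant without shRNA and in library 8 than in libraries 5 to 7. Acta2, smooth muscle actin, which stressed heart muscle cells and myofibroblasts can also express, was 117 to 278 FPKM in wild type, 373 to 662 in untreated mutants, 649 to 1012 in control-virus mutants, 34.5 to 62.5 in shRNA-labelled libraries 5 to 7 and 1059 in library 8. Cnn1 (calponin, named after its values were seen) was 0.543 to 1.17 FPKM in wild type, 1.83 to 7.86 in the 6 mutants without shRNA, 0.237 to 0.894 in libraries 5 to 7 and 2.60 in library 8. Over the list of 6 smooth muscle markers (Myh11, Acta2, Tagln, Cnn1, Smtn and Lmod1) the summed level was 239 to 409 in wild type, 414 to 719 in untreated mutants, 732 to 1104 in control-virus mutants, and 128 to 213 in libraries 5 to 7 with 1199 in library 8. Acta2 carried most of these sums in the mutants. Smtn (smoothelin) and Tagln (transgelin), the next highest of the list, did not follow Acta2: Smtn was 66.9 to 71.6 FPKM in wild type, 20.9 to 45.5 in the 6 mutants without shRNA and 65.9 to 112 in the shRNA-labelled group, and Tagln 34.5 to 40.5, 12.6 to 33.5 and 18.1 to 46.1. Myh11, the myosin that defines smooth muscle and is named here after its values were seen, was at 14.1 to 15.8 FPKM in wild type, 3.75 to 8.01 in the 6 mutants without shRNA and 8.16 to 11.2 in the shRNA-labelled group. No marker of the list was at 0 in any library. The sum of fibroblast markers (8 genes, none at 0) was likewise higher in the 6 mutants and library 8 than in wild type. It was 851 to 1249 FPKM in wild type, 1899 to 3399 in the 6 mutants and 4561 in library 8. In libraries 5 to 7 it was 937 to 1753, within or above the wild-type range, where their smooth muscle sum was below it. Dcn was the highest, with means from 737 FPKM in wild type to 1348 in control-virus mutants. Singly, as deposited and named after their values were seen, Dcn, Col1a1, Col1a2, Col3a1, Lum and Postn were higher in all 6 mutants than in wild type. The share of all genes that did so was not counted. Called as higher by limma were 2.15% of all tested genes in control-virus and 1.54% in untreated mutants. Pdgfra and Tcf21 overlapped (15.8 to 24.4 and 14.6 to 26.0 FPKM in wild type, 23.7 to 34.0 and 22.6 to 48.1 in control-virus mutants). The part of either list in the Tpm2 values was not tested.

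Ratios of 2 genes within a library do not depend on that library's scale. By their values they set Tnni3 apart from Tnnc1 and Tnnt2, although no ratio test reached an adjusted p under 0.05. In wild-type libraries 2, 3 and 4 the Tnni3 to Tnnc1 ratio was 1.45, 1.36 and 1.19. In untreated mutants it was 0.802, 0.727 and 0.697 and in control-virus mutants 0.752, 0.785 and 0.730, so that Tnnc1 exceeded Tnni3 in all 6. The shRNA-labelled libraries 5, 6 and 7 were at 1.44, 1.40 and 1.45, within or beside the wild-type range, and library 8 at 1.02 fell between the groups. The 6 mutants without shRNA were 1.78-fold below wild type (0.749 ± 0.039, SD, n = 6, against 1.33 ± 0.13, SD, n = 3, two-sided exact permutation p = 0.0238, the smallest that 6 against 3 can give, adjusted p = 0.0536 over 9 ratios). Within males the ratio was 0.727 to 0.802 in 2 mutants and 1.36 to 1.45 in 2 wild types, and within females 0.697 to 0.785 in 4 mutants and 1.19 in the 1 wild type. In this pool of 6, the untreated mutants also differ from wild type in virus.

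The Tnni3 to Tnnt2 ratio also put all 6 mutants without shRNA below wild type. It was 0.838, 0.850 and 0.895 in wild type, 0.641, 0.562 and 0.498 in untreated mutants and 0.481, 0.543 and 0.476 in control-virus mutants. In shRNA-labelled libraries 5, 6 and 7 it was 0.727, 0.810 and 0.705, between mutants and wild type without overlap with either, and library 8 was at 0.512 among the mutants. The 6 mutants were 1.62-fold below wild type (two-sided exact permutation p = 0.0238, adjusted p = 0.0536). Within males the values were 0.562 to 0.641 against 0.838 to 0.850, and within females 0.476 to 0.543 against 0.895.

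Tnnt2 to Tnnc1, a ratio without Tnni3, did not separate the mutants from wild type. It was 1.33 to 1.73 in wild type and 1.25 to 1.56 in the 6 mutants (difference of log2 ratios -0.13, two-sided exact permutation p = 0.262). The 2 mutant groups did not overlap, at 1.25 to 1.40 untreated and 1.44 to 1.56 with control virus. That test gave an exact permutation p of 0.1, the smallest that 3 against 3 can give (adjusted p = 0.9). The shRNA-labelled libraries were at 1.98, 1.73, 2.06 and 2.00, library 8 included, and did not overlap with the other groups, although library 6 and wild-type library 2 both round to 1.73. Against wild type that was 1.26-fold (exact permutation p = 0.0571, the smallest that 4 against 3 can give, adjusted p = 0.129).

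The Tpm2 to Tpm1 ratio was low in every heart and lowest in shRNA-labelled libraries 5 to 7. As a percentage it was 0.350, 0.656 and 0.312 in wild type, 1.00, 0.916 and 0.634 in untreated mutants, and 0.908, 0.953 and 0.671 in control-virus mutants. The 6 mutants lay 2.01-fold above wild type with 1 wild-type library, number 3, inside their range (two-sided exact permutation p = 0.0476, adjusted p = 0.0857). Libraries 5, 6 and 7 were at 0.0567, 0.0534 and 0.0744%, and library 8 at 0.344% was within the wild-type range. The group was 8.84-fold below control-virus mutants on average (exact permutation p = 0.0571, adjusted p = 0.103) with no overlap, and 13.6-fold below them without library 8 (exact p = 0.1, the smallest that 3 against 3 can give). Against wild type it overlapped only through library 8 (p = 0.114, exact permutation test), and was 4.41-fold lower with it and 6.78-fold lower without it.

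Tnnt1 to Tnnt2 was 0.233, 0.260 and 0.168% in wild type and 0.104 to 0.162% in the 6 mutants without shRNA, which were 1.60-fold lower (two-sided exact permutation p = 0.0238, adjusted p = 0.0536). In the shRNA-labelled libraries it stayed at 0.138 to 0.156%, within the range of those mutants and below all wild-type libraries (exact permutation p = 0.0571 against wild type, adjusted p = 0.129). The higher Tnnt1 of those libraries thus went with a higher Tnnt2. The Tnni1 to Tnni3 ratio was 0.00185, 0 and 0% in wild type, 0.0394, 0.0695 and 0.0776% in untreated mutants and 0.0928, 0.0652 and 0.0232% in control-virus mutants. The 6 mutants did not overlap with wild type (two-sided exact permutation p = 0.0238, adjusted p = 0.0536), and no fold is given against a group with libraries at 0. The shRNA-labelled libraries were at 0, 0, 0.0132 and 0.0201%, below the lowest mutant, with library 8 the highest of the 4. In all, 9 ratios were compared in 7 pairs of groups (63 exact permutation tests), and the lowest adjusted p was 0.0536. With 3 against 3 libraries the exact p cannot go below 0.1.

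**Figure D4:**
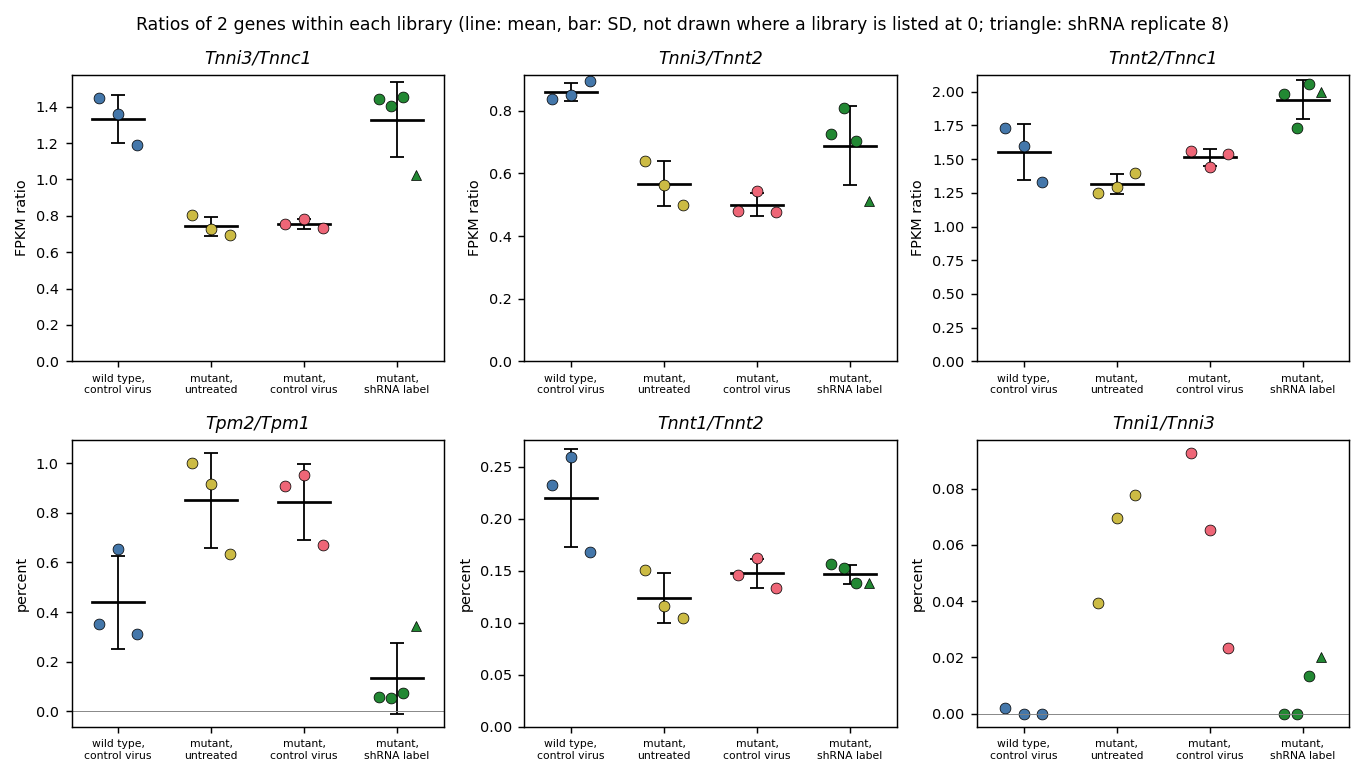
Ratios of the FPKM of 2 genes in the same library (y axis, as a ratio in the upper row and in percent in the lower row) by group (x axis); points are libraries, the triangle is shRNA-labelled library 8, and lines and bars are the group mean and SD, left out where a library is at 0. For Tnni3/Tnnc1 the 6 mutants without shRNA lie between 0.697 and 0.802, below wild type at 1.19 to 1.45, and shRNA-labelled libraries 5 to 7 lie at 1.40 to 1.45.

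The genes whose pattern over the 13 libraries was nearest to each of these genes were taken by the root mean square difference of centred, median-aligned log2 values. For Tnni3 they were Slc25a11 (0.066), Mpc2 (0.071) and Etfb (0.073), where the spread of Tnni3 itself was 0.76. For Tnnt2 they were Mrps16 (0.067), Mpv17 (0.073) and Ndufb6 (0.090), for Tnnc1 Mtch2 (0.11), Cisd1 (0.11) and Rpa2 (0.12), and for Tpm1 Glud1 (0.11), Scnm1 (0.13) and Tcp11l2 (0.14). For Tnnt1 they were Fastk (0.14), Gpsm1 (0.15) and Cmc2 (0.16). Tpm2, with a spread of 1.06, was nearest to Aox1 (0.28), Hsph1 (0.32) and Hspa1l (0.34). The low genes had looser matches: Tnni1, with a spread of 0.91, was nearest to Npr3 (0.35), Gxylt2 (0.38) and Fam129a (0.41), and Tnni2, with a spread of 0.68, to 6030408B16Rik (0.41), Slc7a1 (0.43) and Osr1 (0.44).

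Other genes of the thin filament were called in part, and are given on deposited values. Of 24 genes listed (actins, further tropomyosins, tropomodulins, leiomodins, capping and nebulin-type proteins), 23 were tested. In control-virus mutants 0 were higher and 3 lower than in wild type, where 9.5% of all tested genes were called: Fhod3, a formin of the sarcomere (-1.30, limma adjusted p = 0.0057), Tnni3k, a kinase that binds troponin I (-1.77, adjusted p = 0.0152), and Lmod3, a nucleator of thin filament actin (-1.17, adjusted p = 0.0159). In untreated mutants 0 were higher and 4 lower, where 20.7% of all genes were called, the same 3 and Tmod4, which caps the pointed end of the filament (-2.41, adjusted p = 0.0153). The median difference of the list was -0.20 and -0.36, beside -0.14 and -0.33 over all genes. Between the 2 mutant groups limma called 0, and 0 were at an unadjusted p under 0.05. In the shRNA-labelled group 10 were higher and 1 lower than in control-virus mutants, where 35% of all genes were called, with a list median of 0.46 beside 0.47 over all genes, and 11 were higher and 1 lower than in untreated mutants, where 54.8% were called. The 4 with the smallest p against control-virus mutants were Fhod3 (1.60, adjusted p = 0.000473), Tnni3k (2.75, adjusted p = 0.000473), Tmod4 (2.89, adjusted p = 0.0024) and Nebl (1.24, adjusted p = 0.0027). Acta1, skeletal alpha-actin, was the gene that fell (-2.10, adjusted p = 0.0184), and it is named here after its value was seen. Against untreated mutants the 4 were Fhod3 (1.58, adjusted p = 8.44e-05), Tnni3k (2.57, adjusted p = 0.000122), Tmod4 (3.23, adjusted p = 0.000491) and Capzb, a capping protein of the other filament end (1.20, adjusted p = 0.000948), and Acta1 was again the one that fell (-1.65, adjusted p = 0.0368). Against wild type limma called 0, with 8 of 23 at an unadjusted p under 0.05, as were 15.6% of all genes.

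The remaining tropomyosin genes are Tpm3 and Tpm4. They serve mainly the cytoskeleton of non-muscle cells and, for Tpm3, slow skeletal muscle. Tpm3 was 24.8 to 34.5 FPKM in wild type, 21.3 to 39.0 in untreated mutants, 34.1 to 39.9 in control-virus mutants, 18.4 to 38.4 in shRNA-labelled libraries 5 to 7 and 83.4 in library 8. It was not called in any of the 6 comparisons on deposited values. Tpm4 was 64.7 to 102 FPKM in wild type and 65.9 to 132 in the 6 mutants, and 96.5, 173, 123 and 174 in the shRNA-labelled libraries. On deposited values Tpm4 passed only against untreated mutants (0.80, SE 0.25, limma adjusted p = 0.0146), where the median difference over all tested genes was 0.66. With aligned medians its group means on the log2 scale were 6.37 in wild type and 6.62 in untreated mutants. They were 6.91 in control-virus mutants and 6.79 in the shRNA-labelled group.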

How the data were processed

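PolyA RNA of 13 hearts was analysed; small RNA libraries of the series were not used here. The deposited values are FPKM per gene as the authors computed them. The submitters' processing notes name FastQC 0.11.2, STAR 2.40, Cufflinks 2.2.1, Cuffdiff and the mm9 build. The genes and lists were chosen with earlier results of these data known.

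Of 23998 genes, the 12980 whose mean over the 13 libraries reached 1 FPKM were tested on log2(FPKM + 1) with limma 3.58.1 in R 4.3.3, in 1 fit over the 4 groups with a trended prior, no covariate and Benjamini-Hochberg adjustment over all tested genes. Ratios of genes in a library were compared as log2 ratios with a pseudocount of 0.1 by exact permutation tests (SciPy 1.17.1). Besides the members, the text names Tpm3 and Tpm4, up to 4 thin filament genes per comparison with the smallest p among those called, up to 3 highest genes of a marker list with any defining marker at 0, and the 3 tested genes nearest in pattern to each tested member. The limma step was tested on simulated data. Relative depth came from steps of 1 fragment in low FPKM values (6827 genes, 78 pairs of libraries). Libraries with Ddx3y above 5 FPKM were taken as male. Alternatives were another pseudocount, filter or scaling, sex as a covariate, a replicate block, fits on compared groups, and leaving out each library.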

Additional observations from a re-analysis of the deposited data

Results flagged for a closer look

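In the shRNA-labelled group of 4 libraries, the value of 1 library lay far from the other 3 in 3 of 19 quantities examined (the FPKM of the 10 genes and the 9 ratios), and in each it was library 8. Tpm2 was 49.5 FPKM there and 8.91 to 14.8 in libraries 5 to 7. The Tpm2 to Tpm1 ratio was 0.344% there and 0.0534 to 0.0744% in the others. The Tnni3 to Tnnc1 ratio was 102% there, and 140 to 145% in the others. Each gap, as a share of the group's range, exceeded Dixon's 95% critical value for 4 values, which chance passes in about 1 in 20 groups. Library 8 is also the 1 library of this group with high Six3 (60.6 FPKM) and with the hMyl2 row at 0, and the 1 female, and the part of these in the 3 values was not tested.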

How the results depend on the processing

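The number of the 8 tested genes called was compared under each alternative, with the share of all tested genes called in parentheses. Control-virus mutants against wild type (3 called) gave 0 with no filter on low genes (4.29%), 0 with sex as a covariate (0.971%), 5 with aligned medians and without library 8 (38.9%), and 0 to 3 when 1 library was left out (1.78 to 21.1%). Untreated mutants against wild type (4) gave 2 with no filter (12.9%), 6 on the compared groups alone (39.6%, Tnnc1 and Tpm1 added) and 2 to 5 without 1 library (8.22 to 31.3%). The 2 mutant groups gave 0 throughout (limma, 0 to 1 of 8 at an unadjusted p under 0.05). shRNA-labelled against control-virus mutants (7) gave 4 with no filter (23.6%), 2 after quantile normalization (24.5%), 4 with sex and without library 8 (14.7%), 4 with FPKM scaled to equal medians, an alternative added after seeing the data (24.2%), and 6 to 8 without 1 library (15.9 to 55%). shRNA-labelled against wild type (0) gave 3 with aligned medians and without library 8 (5.69%), 2 with sex and without library 8 (1.77%), and 0 to 3 without 1 library (0 to 1.97%). shRNA-labelled against untreated mutants (7) gave 4 after quantile normalization (28.6%) and 6 to 8 without 1 library (36 to 69.7%). Numbers 2 and 3 occur in both wild type and control-virus mutants, and a replicate block on them left 1 called gene (Tnni1; 5.26%); deviations of same-numbered libraries correlated at -0.20 and -0.11, and the labels do not pair them. Of the other single-gene values, 44 missed the threshold and 184 kept their side of it under alternatives other than leaving out a library, and 29 missed it and 244 kept their side when 1 library was left out. These counts follow only genes called on deposited values, so a gene that became called under an alternative is not among them.

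After quantile normalization Tnnc1 turned sign, to -0.25 against control-virus and -0.21 against untreated mutants. Ratios of low genes turned with the pseudocount. At 1, control-virus against untreated mutants gave -0.16 for Tnnt3/Tnnt2 and -0.10 for Tnnc2/Tnnc1, and shRNA-labelled libraries gave -0.40 for Tnni2/Tnni3 against control-virus and -0.70 for Tnnc2/Tnnc1 against untreated mutants, while at 0.01 Tnni2/Tnni3 against untreated mutants was 0.00034. Leaving out 1 library turned further log2 ratio differences. In control-virus mutants against wild type Tnnt2/Tnnc1 ran from -0.14 to 0.053. In control-virus against untreated mutants Tnni1/Tnni3 ran from -0.59 to 0.35, Tnnt3/Tnnt2 from -0.25 to 0.48, Tpm2/Tpm1 from -0.20 to 0.16 and Tnni3/Tnnc1 from -0.015 to 0.086. In shRNA-labelled against control-virus mutants Tnni2/Tnni3 ran from -0.068 to 0.85, Tnnt1/Tnnt2 from -0.081 to 0.057 and Tnnc2/Tnnc1 from -0.74 to 0.35. Against wild type Tnni3/Tnnc1 ran from -0.094 to 0.11, and against untreated mutants Tnni2/Tnni3 ran from -0.66 to 0.19 and Tnnc2/Tnnc1 from -0.080 to 1.31. Tnni1/Tnni3 in the 6 mutants against wild type ran from 5.09 to 5.90, where leaving out a wild type raises the smallest exact p to 0.0714. The cause was not tested in any of these. Values of Tnni1, Tnni2, Tnnt3 and Tnnc2 rest on at most 29 fragments, which limits them.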
